A study of Mus musculus with 9 samples.

Results

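Gpam, Agpat2, Lpin1, Dgat1, Dgat2, Pnpla3, Pck1 and Gpd1 encode enzymes that build triglyceride or supply its glycerol backbone, and their nuclear RNA was followed in mouse epididymal adipose tissue (epiAT) through obesity and weight loss (WL). The members were taken by symbol from the gene column of the matrices, which held 8 of 8, among 32285 genes. Single-nucleus RNA sequencing (snRNA-seq) of snap-frozen epiAT gave 9 libraries from male C57BL/6J mice, each a pool of 5 mice and each the only library of its group. Chow libraries were C (18 weeks of age), CC (26 weeks) and CCC (39 weeks). High-fat diet (HFD) libraries were H (12 weeks of HFD, 18 weeks of age), HH (25 weeks of HFD, 31 weeks of age), CCH (4 weeks of HFD after chow only, 30 weeks of age) and HCH (12 weeks of HFD, 8 weeks of chow, 4 weeks of HFD, 30 weeks of age). The libraries collected after WL were HC (12 weeks of HFD and then 8 weeks of chow, 26 weeks of age) and HHC (25 weeks of HFD and then 8 weeks of chow, 39 weeks of age). The study's methods describe a low-fat control diet during the HFD phases and standard chow afterwards, so C differed from CC and CCC in diet as well as age. The series thus asks which transcriptional states of obesity remain after WL and how a second HFD phase acts on them.

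Fat cells make triglyceride by adding fatty acyl chains to glycerol 3-phosphate. GPAM adds the initial acyl chain in mitochondria, AGPAT2 adds the next, lipin 1 (Lpin1) removes the phosphate to give diacylglycerol, and DGAT1 or DGAT2 adds the last chain. PNPLA3 is a lipid droplet protein with lipase and acyltransferase activity. Adipocytes have little glycerol kinase, so they make glycerol 3-phosphate from glucose, through the glycerol 3-phosphate dehydrogenase GPD1, or from pyruvate by glyceroneogenesis, in which the cytosolic PEPCK encoded by Pck1 is the key enzyme.

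RefSeq promoters (GRCm38.p6, 250 bases before and 50 after a start site) were found for 5 of the 8 genes: Gpam, Agpat2, Lpin1, Pnpla3 and Pck1. Dgat1, Dgat2 and Gpd1 were not among the entries. The 5 genes had 6 promoters, since Gpam had 2 start sites. Shown are the upstream Gpam promoter and the Pnpla3 promoter, which hold every match found to the searched motifs, and the promoter of Pck1, the glyceroneogenic gene. Capitals mark the matches. Only exact matches to the letters given below were sought, so a stretch that differs by a base, such as ttacgtca in Pck1, is not marked.
Gpam, chr19:55127189-55127488, minus strand: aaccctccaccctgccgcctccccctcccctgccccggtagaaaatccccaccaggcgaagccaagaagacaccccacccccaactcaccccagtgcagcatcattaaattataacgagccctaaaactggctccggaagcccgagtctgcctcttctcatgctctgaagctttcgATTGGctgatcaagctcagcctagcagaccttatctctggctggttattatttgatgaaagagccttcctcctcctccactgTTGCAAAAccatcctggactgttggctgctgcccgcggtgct
Pnpla3, chr15:84167566-84167865, plus strand: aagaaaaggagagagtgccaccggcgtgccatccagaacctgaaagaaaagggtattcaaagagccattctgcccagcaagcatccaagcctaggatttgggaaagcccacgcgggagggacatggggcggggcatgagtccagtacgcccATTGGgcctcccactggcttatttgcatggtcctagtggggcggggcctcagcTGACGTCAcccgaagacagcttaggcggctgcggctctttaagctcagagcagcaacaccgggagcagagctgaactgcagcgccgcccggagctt
Pck1, chr2:173152823-173153122, plus strand: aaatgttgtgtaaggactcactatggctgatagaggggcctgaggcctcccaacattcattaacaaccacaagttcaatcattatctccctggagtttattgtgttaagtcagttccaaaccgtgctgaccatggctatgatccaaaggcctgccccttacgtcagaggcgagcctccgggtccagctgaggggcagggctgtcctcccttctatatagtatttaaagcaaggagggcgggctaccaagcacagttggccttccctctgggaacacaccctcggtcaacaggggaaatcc
Positions were counted from the start site, with 1 as the first transcribed base, and give the leftmost base of a match. On both strands, the CCAAT box (CCAAT) was found in Gpam at -74 and in Pnpla3 at -99, and in 37.4% of all 32851 promoters of the table. The cAMP response element (TGACGTCA) was found in Pnpla3 at -46 and in 1.79% of all promoters. The C/EBP-like motif (TTGCNNAA) was found in Gpam at 9 and in 10.8% of all promoters. No member promoter held the E-box (CACGTG, 7.15% of all promoters), the sterol response element (TCACNCCAC, 1.24%) or the direct repeat of AGGTCA with 1 base between (0.0396%). No match overlapped another motif.

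The 9 matrices held 91687 barcodes and 408905640 unique molecular identifiers (UMIs, the molecules counted), from 22599619 to 66615262 UMIs a library, and any pair of libraries shared between 8 and 55 barcode sequences. Nuclei with 500 to 3000 genes were kept (76356), and each was placed in a class when it held at least 3 of that class's markers and the class led the next by at least 2 markers. Adipocyte-gated nuclei numbered 3026, 2592 and 2351 in the chow libraries C, CC and CCC. They numbered 191 (H), 474 (HH), 835 (CCH) and 408 (HCH) under HFD, and 1010 (HC) and 502 (HHC) after WL. All 11 adipocyte markers, such as Adipoq and Plin1, had UMIs in each. In CC the gate took in 62.5% of nuclei, and adipocyte marker RNA in its progenitor-gated nuclei reached 26.2% of the adipocyte level, against 1.86% to 10.3% in the other libraries. CC therefore stood apart, and an assignment that models free RNA kept 1263 nuclei as adipocytes there. Without the limit of 3000 genes, H held 599 adipocyte-gated nuclei and CCH 2753. The labels' library names carry 2 prefixes, and every HFD library and C had one while the WL libraries, CC and CCC had the other. HFD against WL therefore cannot be told apart from that prefix without the chow libraries. C differed from CC and CCC in this prefix as well as in diet and age. In the pairs below, HH and CCH differed from their control CC in prefix and age, and the other pairs shared both.

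All 8 genes were higher in adipocyte-gated nuclei than in any other class with at least 20 nuclei in every library (progenitor, macrophage and endothelial). The level of a gene is given throughout as CPM, its UMIs per 1000000 UMIs of the class in that library. Each gene was higher in 9 of 9 libraries than in the next of these classes. The exact two-sided sign-flip permutation p was 0.00391, adjusted p = 0.00391 over the 8 genes, the smallest 9 libraries can give. The difference was largest for Pnpla3, at 4.17 ± 1.77 (SD, n = 9 libraries) on the log2(CPM + 1) scale against endothelial-gated nuclei. For Pck1 it was 3.56 ± 1.78 and for Dgat2 3.33 ± 0.991. Agpat2 differed least, by 1.82 ± 0.673. Its locus overlaps Egfl7, an endothelial marker, on the opposite strand, and the part of this overlap was not tested. The remaining differences were 2.80 ± 1.40 for Gpd1, 2.76 ± 0.995 for Dgat1, each against endothelial-gated nuclei, 2.43 ± 0.542 for Lpin1 against macrophage-gated nuclei and 2.06 ± 0.758 for Gpam against progenitor-gated nuclei. For 6 of the 8 genes the smallest difference was in CC, and for Gpam and Gpd1 it was in HHC and HC. Classes with fewer nuclei were not tested, though some had higher medians than these. Gpam had a median of 102 CPM in mesothelial-gated nuclei (6 libraries) and 95.5 CPM in epididymal epithelial-gated nuclei (4 libraries). Its adipocyte median was 190 CPM.

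**Figure D1:**
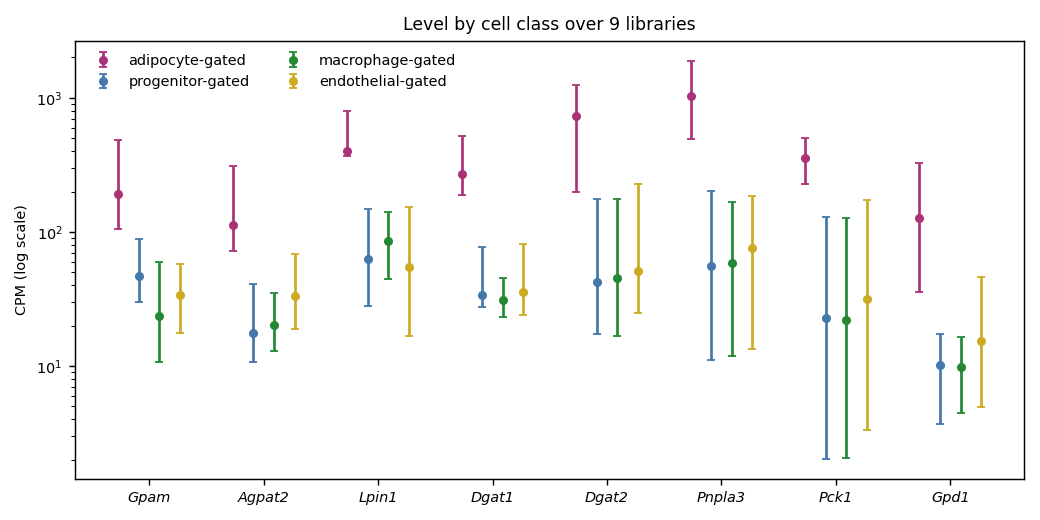
Level of each gene in CPM (log scale) in adipocyte-, progenitor-, macrophage- and endothelial-gated nuclei; points are medians and bars the lowest and highest of 9 libraries. For each gene the adipocyte median lies above that of the other 3 classes, as for Pck1 at 354 CPM against 31.5 CPM in endothelial-gated nuclei.

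Gpam (chr19:55067268-55127238, minus strand), the acyltransferase of the initial step, was highest in C at 481 CPM, with 207 CPM in CC and 143 CPM in CCC. Under HFD it was 190.2 CPM in H, 169.5 CPM in HH, 352 CPM in CCH and 155 CPM in HCH. After WL it was 195 CPM in HC and 105 CPM in HHC. C and CCH stood above all other libraries and HHC below them, and the remaining 4 HFD or WL libraries lay between CCC and CC. Of the 8 neighbouring pairs in the order of the 9 levels, 5 had overlapping 95% intervals. In H, Gpam was lower than in C by a log2 ratio of -1.34 (95% interval -1.57 to -1.11), and in HCH it was lower than in CCH by -1.18 (-1.38 to -0.99). HH against CC gave -0.28 (-0.46 to -0.12), and -1.50 with C as control. HHC against CCC gave -0.44 (-0.68 to -0.21) and HC against CC -0.09 (-0.21 to 0.04). These intervals are exact conditional ones and cover counting error only, since a comparison of 2 libraries has no replicate.

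Agpat2 (chr2:26593057-26604417, minus strand), the acyltransferase of the next step, whose loss in people and mice causes lipodystrophy, had its highest levels in H and HH. It stood at 71.7 CPM in C, 93.4 CPM in CC and 89.1 CPM in CCC, and at 292 CPM in H, 311 CPM in HH, 112 CPM in CCH and 176 CPM in HCH. After WL it was 129 CPM in HC and 75.3 CPM in HHC. All 4 HFD libraries lay above all 3 chow libraries, and the WL libraries overlapped the chow range. With the assignment that models free RNA, CCH against CC turned from 0.27 to -0.0668, so that this separation was lost. H and HH did not differ beyond their intervals, and neither did CCH and HC. The log2 ratio was 2.03 (1.82 to 2.23) for H against C and 1.73 (1.58 to 1.89) for HH against CC. It was 0.46 (0.30 to 0.62) for HC against CC and -0.24 (-0.53 to 0.03) for HHC against CCC. Over 8 alternatives HC against CC ran from 0.19 to 1.51, the highest with the level in mesothelial nuclei subtracted. HCH exceeded CCH by 0.64 (0.43 to 0.86).

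Lpin1 (chr12:16535669-16610966, minus strand), the phosphatidate phosphatase, varied least, with a 2.18-fold span from the lowest to the highest library. It was 802 CPM in C, 388 CPM in CC and 404 CPM in CCC. HFD libraries held 382 CPM (H), 404 CPM (HH), 499.7 CPM (CCH) and 423 CPM (HCH), and WL libraries 505 CPM (HC) and 368 CPM (HHC). C lay apart at the top, CCH and HC lay below it and above the other 6 libraries, and 6 of the 8 neighbouring pairs overlapped. Lpin1 was lower in H than in C by -1.07 (-1.24 to -0.91), while HH against CC gave 0.06 (-0.05 to 0.17). The HH value was -0.99 with C as control, and it was below 0 in 6 of 9 alternatives. HC exceeded CC by 0.38 (0.30 to 0.46) and HHC lay below CCC by -0.13 (-0.26 to -0.01).

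Dgat1 (chr15:76502015-76511953, minus strand) and Dgat2 (chr7:99153658-99182719, minus strand) encode unrelated enzymes for the last acylation and were ordered differently over the libraries. Dgat1 was 272 CPM in C, 196 CPM in CC and 214 CPM in CCC, and 519.9 CPM in H, 459.7 CPM in HH, 322 CPM in CCH and 296 CPM in HCH. HC held 229.5 CPM and HHC 189 CPM. The 4 HFD libraries were again all above the 3 chow libraries, though HCH and C overlapped in their intervals, and the WL libraries were within or below the chow range. Scaled by the normalization factors given below, C would lie above HCH. Dgat1 exceeded its control by 0.94 (0.79 to 1.08) in H and by 1.23 (1.11 to 1.35) in HH, against 0.23 (0.11 to 0.34) in HC and -0.18 (-0.35 to -0.01) in HHC. The assignment that models free RNA turned HC against CC to -0.11, and subtraction of the level in mesothelial nuclei turned HHC against CCC to 0.11.

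Dgat2 was lowest in C, at 198 CPM, with 728 CPM in CC and 1011 CPM in CCC. HFD libraries lay at 689.5 CPM (H), 968 CPM (HH), 644 CPM (CCH) and 811 CPM (HCH), all between C and CCC. HC held the highest level, 1251 CPM, and HHC 668 CPM. The WL libraries thus lay on either side of their controls, by 0.78 (0.73 to 0.84) for HC against CC and -0.60 (-0.69 to -0.51) for HHC against CCC. H exceeded C by 1.80 (1.67 to 1.93) and HH exceeded CC by 0.41 (0.34 to 0.48). With the assignment that models free RNA, HH against CC turned to -0.13.

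Pnpla3 (chr15:84167837-84187236, plus strand), the lipid droplet protein, was the gene whose 9 levels were all apart, with no overlap between neighbouring intervals. It was 1313 CPM in C, 646 CPM in CC and 549.6 CPM in CCC. H and HH were highest, at 1693 and 1892 CPM, and CCH and HCH held 1145 and 833 CPM. HC was at 1033 CPM and HHC, the lowest, at 493 CPM. Among the chow libraries C lay inside the HFD range, and CC and CCC below it. The log2 ratio to the control was 0.37 (0.29 to 0.45) for H and 1.55 (1.49 to 1.61) for HH. Over 8 alternatives H against C ran from 0.0136, with normalization (TMM) factors, to 0.57. Over 9 alternatives HH against CC ran from 0.53 to 1.65. It was 0.68 (0.62 to 0.74) for HC and -0.16 (-0.27 to -0.05) for HHC. HCH lay below CCH by -0.46 (-0.55 to -0.37). Its locus also holds Mir6392 and Gm49513 on the same strand, whose reads could not be told apart where they overlap.

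Pck1 (chr2:173153048-173159273, plus strand), the glyceroneogenic PEPCK, was highest in the libraries with 4 weeks of recent HFD, 505 CPM in CCH and 494 CPM in HCH, which did not differ beyond their intervals. C, whose interval overlapped that of HCH, held 464 CPM, CC 324 CPM and CCC 354 CPM. H and HH held 350.2 and 299 CPM, inside or just below the range of CC and CCC, and HC held 357 CPM. HHC was lowest at 227 CPM, below CCC by -0.64 (-0.80 to -0.49). CCH exceeded CC by 0.64 (0.56 to 0.72), while H lay below C by -0.41 (-0.58 to -0.24) and HH against CC gave -0.12 (-0.25 to 0.01). Over 9 alternatives HH against CC ran from -0.75 without the upper gene limit to 0.74 with the level in mesothelial nuclei subtracted. Over 8 alternatives CCH against CC ran from 0.12 to 1.41 and H against C from -1.07 to -0.33. HC against CC gave 0.14 (0.05 to 0.23), which turned to -0.13 with the assignment that models free RNA.

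Gpd1 (chr15:99717515-99725005, plus strand), which makes glycerol 3-phosphate from the glycolytic intermediate dihydroxyacetone phosphate, spanned most, 9.23-fold. It was 35.4 CPM in C, 55.0 CPM in CC and 95.4 CPM in CCC, and 219 CPM in H, 327 CPM in HH, 65.2 CPM in CCH and 135 CPM in HCH. HC held 126 CPM and HHC 169 CPM. Both WL libraries lay above all 3 chow libraries, whereas CCH among the HFD libraries was inside the chow range. Gpd1 exceeded its control by 2.63 (2.38 to 2.88) at 12 weeks of HFD and by 2.57 (2.40 to 2.74) at 25 weeks. After WL the excess was 1.20 (1.02 to 1.38) for HC and 0.82 (0.62 to 1.03) for HHC. With the level in mesothelial nuclei subtracted, of which CC had 5, HC against CC turned to -0.37. In HCH it exceeded CCH by 1.04 (0.78 to 1.31), and CCH exceeded CC by 0.25 (0.02 to 0.47). From HC through HCH and HHC to H, each neighbour's interval overlapped the next.

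**Figure D2:**
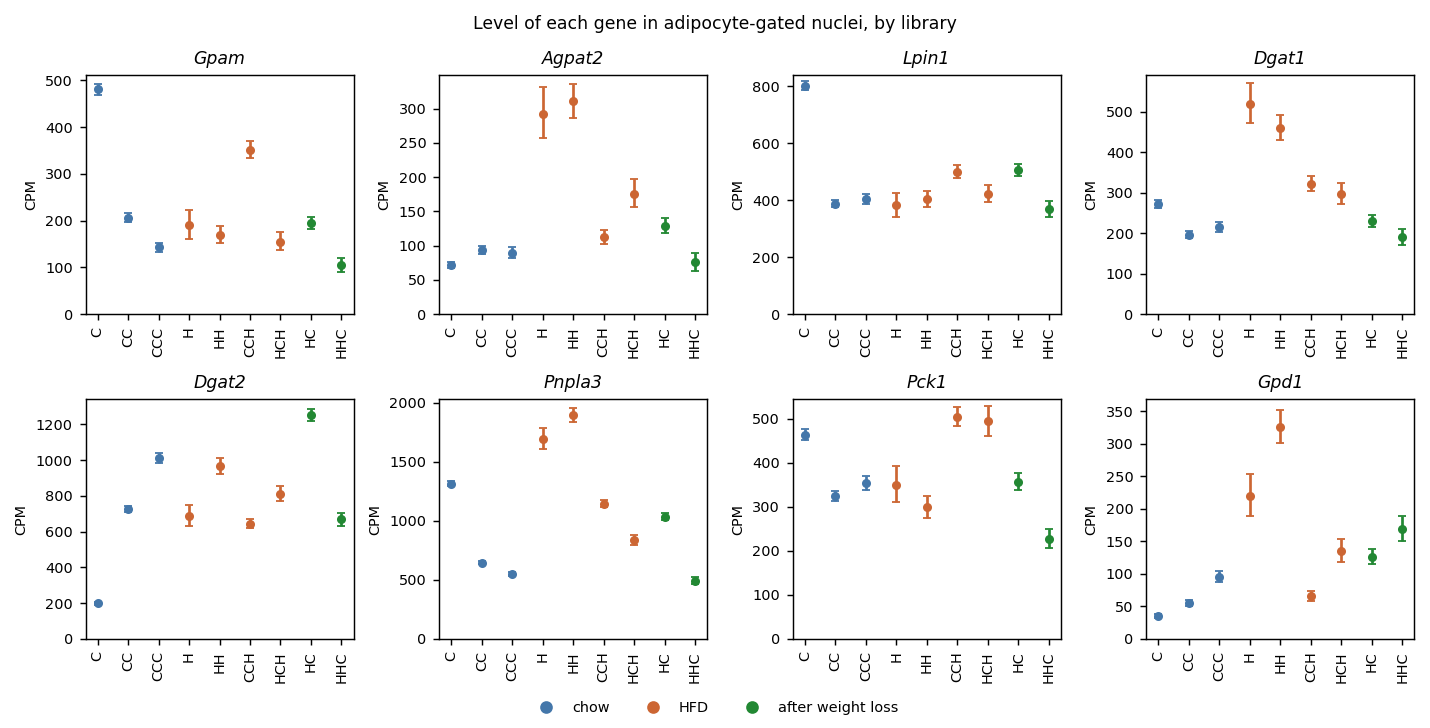
CPM of each gene in adipocyte-gated nuclei in the 9 libraries, coloured by diet state, with exact Poisson 95% intervals. Agpat2 and Dgat1 are higher in the 4 HFD libraries than in the 3 chow libraries, and Gpd1 is higher in both WL libraries than in the chow libraries. For every gene the interval of C lies apart from those of CC and CCC, which have the other library prefix.

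Counted by diet state, 2 of 8 genes (Agpat2 and Dgat1) were higher in every HFD library than in every chow library, against 8.65% of the 15351 genes tested, and 0 of 8 were lower, against 7.14%. The count higher under HFD was 1 (Dgat1) with the assignment that models free RNA and 3 (Pnpla3 too) without the upper gene limit. These counts are of CPM without the normalization (TMM) factors of the edgeR fit, 0.864 for C and 1.04 for HCH. Scaled by them, Dgat1 would be higher in C than in HCH, and the share of all genes was not counted. After WL, 1 of 8 (Gpd1) was higher in every library than in chow, against 8.11% of genes, and 0 of 8 were lower, against 16.9%. The assignment that models free RNA gave 1 lower (Pck1). Among the adipocyte-gated nuclei the summed level of the 11 adipocyte markers was 10996 to 14640 CPM in chow, 15508 to 16284 CPM under HFD and 11277 to 11907 CPM after WL. The 11 macrophage markers summed to 652 to 1059 CPM in chow, 676 to 863 CPM under HFD and 821 to 1965 CPM after WL. The 10 progenitor markers summed to 781 to 1628 CPM in chow, 630 to 1504 CPM under HFD and 754 to 887 CPM after WL, and no marker of these 3 lists was at 0. The part of these sums in the results was not tested.

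The state contrasts were fitted with edgeR over all 15351 genes, with the libraries of a state standing in for replicates although they differ in age and length of diet. For HFD against chow, edgeR called 0 members and 0 genes (0.0%) at an adjusted p below 0.05, and 3 members (Agpat2, Dgat1 and Gpd1) against 26.8% of genes had an unadjusted p below that level. The edgeR log2 fold change was 1.30 (SE 0.36, adjusted p = 0.0906) for Agpat2, 1.54 (SE 0.47, adjusted p = 0.0979) for Gpd1 and 0.71 (SE 0.27, adjusted p = 0.139) for Dgat1. It was 0.60 (SE 0.46) for Pnpla3, 0.25 (SE 0.44) for Dgat2, 0.03 (SE 0.32) for Pck1, -0.43 (SE 0.34) for Lpin1 and -0.48 (SE 0.50) for Gpam. The median over the 8 genes was 0.43, beside -0.03 over all genes. It was 0.07 with the library prefix as a term, 0.08 without CC and CCC and 0.14 with the assignment that models free RNA. Over all genes it was then 0.04, 0.05 and -0.04. The prefix term and the fit without CC and CCC both set the HFD libraries against C alone, the only chow library with their prefix. DESeq2 called 2 members higher, Agpat2 (1.26, adjusted p = 0.0152) and Gpd1 (1.50, adjusted p = 0.0205), among 10.5% of the genes it tested. These genes were also called by edgeR without CCH (15.6% of genes called), with H and HH alone as the HFD state (17%), without the filter on low counts (5.72%) and without the upper gene limit (13.4%), and over all 20 alternatives the adjusted p ran from 0.0152 to 0.442 for Agpat2 and from 0.0139 to 0.435 for Gpd1. The edgeR estimate for Agpat2 without CCH was 1.49 (SE 0.30, adjusted p = 0.0226) and that for Gpd1 1.80 (SE 0.36, adjusted p = 0.0224). Without C, the estimates turned to 0.32 for Gpam, 0.12 for Lpin1 and -0.15 for Dgat2.

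For WL against chow, edgeR called 0 members and 0 genes (0.0%), and 1 member (Gpd1) against 10.5% of genes passed unadjusted. Gpd1 had the largest edgeR estimate, 1.35 (SE 0.53, adjusted p = 0.401), followed by -0.84 (SE 0.62) for Gpam and 0.75 (SE 0.52) for Dgat2. With 1 library left out, Gpam ran from -1.55 (without HC) to -0.0458 (without C) and Dgat2 from 0.0317 (without HC) to 1.23 (without HHC). The other 5 genes lay between -0.30 (Pck1) and 0.39 (Agpat2), and the median was -0.06 beside -0.04 over all genes. The median turned to 0.33 with the library prefix as a term, without C and without HHC, and to 0.25 with age as a term. It was -0.58 without CC and CCC and -0.51 without HC. With the prefix term, WL against chow rests on CC and CCC, as it does without C. Agpat2 turned to -0.25 without HC, and Pnpla3 ranged from -0.90 without HC to 0.54 without C. DESeq2 called 0 of the 8 genes and 1.23% of genes, and edgeR with age as a term called 0 of the 8 and 343 genes. For WL against HFD, edgeR again called 0 members and 0 genes (0.0%), with 2 members (Agpat2 and Dgat1) and 19.8% of genes passing unadjusted, and DESeq2 called 0 members and 4.77% of genes. In edgeR, Agpat2 was at -0.92 (SE 0.41, adjusted p = 0.250) and Dgat1 at -0.76 (SE 0.32, adjusted p = 0.225). With 1 library left out, Agpat2 ran from -1.54 (without HC) to -0.47 (without HHC), and Dgat1 from -1.06 to -0.49 without the same libraries. The median was -0.34 beside -0.03 over all genes. With the library prefix as a term, the median turned to 0.13 (-0.15 over all genes), Gpam to 1.32 and Dgat2 to -1.39.

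**Figure D3:**
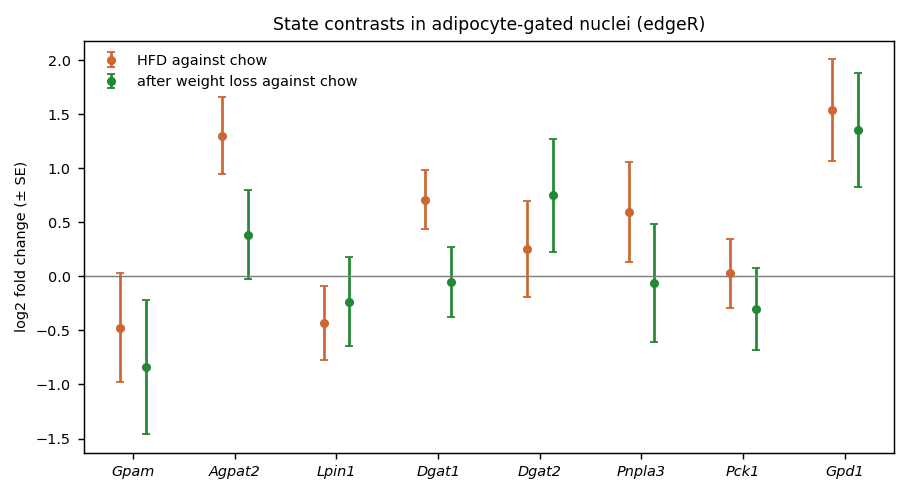
log2 fold change (± SE) of each gene in adipocyte-gated nuclei from edgeR, for HFD against chow (4 and 3 libraries) and WL against chow (2 and 3 libraries). Agpat2, Gpd1 and Dgat1 have the largest HFD estimates, 1.30, 1.54 and 0.71, and for WL Gpd1 stands at 1.35; none had an adjusted p below 0.05.

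For the pairs of libraries, a gene was counted as past the fold at a log2 ratio of 1 or more in size with an interval that left out 0, among genes with at least 20 UMIs over both libraries. In H against C, 3 of 8 genes were past the fold upwards (Agpat2, Dgat2 and Gpd1), against 21.4% of genes. Downwards there were 2 (Gpam and Lpin1), against 6.93%. Dgat1 passed a log2 ratio of 1 upwards in 2 of 8 alternatives, and Pck1 downwards in 1. In HH against CC, 4 were upwards (Agpat2, Dgat1, Pnpla3 and Gpd1), against 21.0%, and 0 downwards, against 18.2%. Dgat1 was short of the fold in 4 of 9 alternatives and Pnpla3 in 1, with C as control, where they were at 0.76 and 0.53. With C as control, Dgat2 (2.29) was past a log2 ratio of 1 upwards and Gpam (-1.50) downwards. Agpat2 and Gpd1 were thus past the fold at both lengths of HFD. H and C share a library prefix and an age, whereas HH and CC differ in both. By the study's methods CC had also moved to standard chow, whereas C had the low-fat control diet. In HC against CC, 1 was upwards (Gpd1), against 3.93%, and 0 downwards, against 17.6%. With the level in mesothelial nuclei subtracted, Gpd1 fell to -0.37 and Agpat2 rose to 1.51. In HHC against CCC, 0 were upwards, against 5.34%, and 0 downwards, against 12.2%. Gpd1, at 0.82 there, passed a log2 ratio of 1 upwards in 2 of 8 alternatives, which ran from 0.71 to 1.31. In HCH against CCH, 1 was upwards (Gpd1), against 11.3%, and 1 downwards (Gpam), against 3.61%. Both ended under an alternative: Gpam was at -0.70 without the upper gene limit, and Gpd1 fell short of the fold in 5 of 8 alternatives, at 0.89 or more. In CCH against CC, 0 were upwards, against 6.83%, and 0 downwards, against 16.1%. Under 1 alternative each, Pck1 reached 1.41, Pnpla3 1.09 and Gpam 1.05 there.

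The median log2 ratio of the 8 genes was 0.65 for H and 0.82 for HH, beside 0.25 and 0.07 over all genes counted. It was 0.42 for HC and -0.21 for HHC, beside -0.22 and -0.10. For HCH against CCH it was -0.07 and for CCH against CC 0.50, beside 0.07 and -0.07. With the assignment that models free RNA the members' median was 0.33 for HH, 0.12 for HC and 0.21 for CCH against CC. With TMM factors it was 0.30 for H, 0.72 for HH and 0.61 for HC. In HC against CC, 7 of 8 genes had an interval above 0, against 15.1% of genes, and 0 below it, against 37.1%. In HHC against CCC, 1 had an interval above 0 (Gpd1), against 13.5%, and 6 below it, against 23.0%. For 5 of 8 genes (Lpin1, Dgat1, Dgat2, Pnpla3 and Pck1) the interval was above 0 in HC against CC and below 0 in HHC against CCC, against 1.81% of the 13925 genes counted in both pairs, and for 0 it was the other way round, against 1.67%. An interval narrows with the number of UMIs, and the members had at least 987 and 650 UMIs in these pairs, beside medians of 238 and 178 over all genes counted. The intervals are of CPM without TMM factors, which were 1.11 for CCC and 1.03 for HHC. With them, the intervals of Lpin1, Dgat1 and Pnpla3 in HHC against CCC would span 0, and the share of all genes was not counted. The comparisons HH, HC and CCH against CC share CC as control, the library with the most adipocyte marker RNA in other classes.

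**Figure D4:**
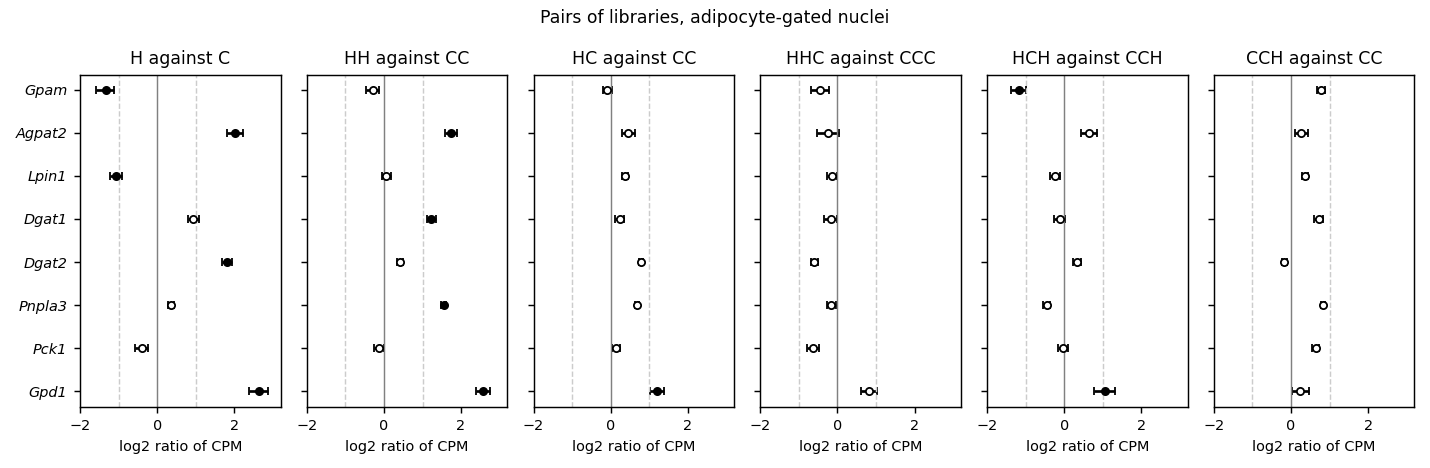
log2 ratio of CPM in adipocyte-gated nuclei for the 6 pairs of libraries, with exact conditional 95% intervals (counting error only); filled points are past the fold (dashed lines at 1 and -1). Agpat2 and Gpd1 are past 1 in H and HH, and Gpd1 is also past 1 in HC and in HCH.

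The other genes of the pathway, from a list of 17 that includes the isozymes Gpat3, Gpat4, Agpat1, Agpat3, Lpin2, Pck2 and Gpd1l, were fitted in the same way: in edgeR as used for the members, 0 of the 16 tested in adipocyte-gated nuclei had an adjusted p below 0.05 in any of the 3 state contrasts. At an unadjusted p below 0.05 edgeR gave 6 for HFD against chow, 2 for WL against chow and 4 for WL against HFD, beside the shares of all genes given above. DESeq2 called 0, 1 and 2 of them, which were Gk, the glycerol kinase gene, lower after WL than in chow (-2.61, adjusted p = 0.000796) and than under HFD (-1.73, adjusted p = 0.0234), and Agpat3, higher after WL than under HFD (0.79, adjusted p = 0.0427). Of 19 alternative edgeR fits, 4 called 1 to 3 of these genes for HFD against chow (Agpat3, Agpat4 and Gpd1l lower and Aqp7 higher, in 1 to 3 fits each). For WL against chow 2 fits called Gk lower, at -2.90 (adjusted p = 0.0225) with age as a term and -2.62 (adjusted p = 0.0198) without the filter on low counts, and for WL against HFD no fit made a call. Their median log2 fold change was -0.33 for HFD against chow, -0.11 for WL against chow and 0.17 for WL against HFD. In H against C, 1 of 15 counted was past the fold upwards and 2 downwards, and in HH against CC 3 of 16 were upwards and 4 downwards. After WL, 0 of 16 were upwards and 4 downwards for HC, and 0 of 16 upwards and 3 downwards for HHC. HCH had 0 of 15 upwards and 1 downwards against CCH, and CCH 0 of 15 upwards and 3 downwards against CC. Of 12 genes for regulators of the pathway, among them Pparg, Srebf1 and Mlxipl, the same edgeR fit called 0 in any contrast, with medians of -0.21, 0.10 and 0.27, and 3, 0 and 3 passed unadjusted. DESeq2 called 1, 0 and 1, each time Insig1, which restrains the processing of sterol response element binding proteins. It was higher under HFD than in chow (2.77, DESeq2 adjusted p = 4.17e-06) and lower after WL than under HFD (-2.30, adjusted p = 0.00266). Of the 19 alternative edgeR fits, 6 called Insig1 higher for HFD against chow, 2 of which also called Cebpa higher, and 3 called Insig1 lower for WL against HFD. Gk, Agpat3, Agpat4, Gpd1l, Aqp7, Insig1 and Cebpa were named with these values after the values were seen. Of these 12, 3 were past the fold upwards and 1 downwards in H against C, and 3 upwards and 0 downwards in HH against CC. For HC 0 were upwards and 2 downwards, for HHC 0 in either direction, for HCH against CCH 2 upwards and 0 downwards, and for CCH against CC 1 upwards and 0 downwards. The shares of all genes past the fold in each pair are those given above for the members.

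All 8 genes also had UMIs in other classes, and so did the adipocyte markers. In progenitor-gated nuclei the 11 adipocyte markers summed to 1019 to 2881 CPM in chow, 303 to 775 CPM under HFD and 754 to 1092 CPM after WL, with all 11 detected in every library. Pck1 in these nuclei was at 31.7 CPM (C), 128 CPM (CC) and 57.5 CPM (CCC) in chow. Under HFD it was at 2.03 CPM in H, 2.07 CPM in HH, 20.3 CPM in CCH and 8.55 CPM in HCH, and after WL at 34.0 CPM in HC and 22.7 CPM in HHC. Of the members only Pck1 is given by library here. For these nuclei the share of all genes lower in every HFD library was not counted. The marker sums were lower in all 4 HFD libraries than in chow, and their part in the Pck1 values was not tested.

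The percent of the adipocyte level found in another class was set beside the same percent for the 11 adipocyte markers. These markers also define the gate, which can lower their percent in other classes, and no share over all genes was counted. Values above the marker percent therefore cannot tell RNA of the class itself from free RNA. In progenitor-gated nuclei, Gpam, Agpat2, Lpin1 and Dgat1 exceeded the marker percent in 9 of 9 libraries, at medians of 3.52, 3.15, 1.68 and 2.18 times it. Pnpla3 exceeded it in 3 and Pck1 in 4 of 9 libraries, at medians of 0.798 and 0.981 times it, and Dgat2 and Gpd1 in 6 of 9, at 1.26 and 1.30 times. In macrophage-gated nuclei Agpat2 and Lpin1 exceeded it in 9 of 9 libraries, at 2.54 and 2.43 times, and Pnpla3 in 2 of 9, at 0.842 times. In endothelial-gated nuclei Agpat2 exceeded it in 9 of 9 libraries, at 1.93 times, and Pnpla3 in 0 of 9.

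In progenitor-gated nuclei edgeR called 0 members for HFD against chow (0 of 16140 genes, 0.0%), 0 for WL against chow (0.0%) and 0 for WL against HFD (0.0186%). At an unadjusted p below 0.05 the counts were 5 members against 20.6% of genes, 1 against 11.4% and 2 against 18.4%. DESeq2 called 3 members lower for HFD against chow (Pck1, Lpin1 and Dgat1, among 5.31% of genes), and 0 for WL against chow (1.7%) and WL against HFD (4.78%). Without CCH, edgeR called 5 members lower for HFD against chow, among 8.42% of genes. The members' median log2 fold change was -1.09, -0.57 and 0.56 in these contrasts, beside 0.00, -0.02 and -0.05 over all genes. In macrophage-gated nuclei edgeR called 0 members in each contrast (0.0%, 0.0% and 0.052% of genes), with 4, 0 and 2 members unadjusted against 26.8%, 14.0% and 16.0% of genes. DESeq2 called 1 member lower for HFD against chow there (Pck1, among 10.3% of genes), and 0 for WL against chow (3.53%) and WL against HFD (3.73%). Without CCH, edgeR called 4 members lower for HFD against chow, among 24.9% of genes. The 11 adipocyte markers summed in these nuclei to 1269 to 2613 CPM in chow, 350 to 1209 CPM under HFD and 725 to 995 CPM after WL, all detected in every library, and their part in the values was not tested. The members' medians were -0.95, -0.53 and 0.61, beside 0.07, 0.04 and -0.06 over all genes.

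Over all nuclei of a library together, a gene's level reflects how many nuclei are adipocytes as well as the level in each. Adipocyte-gated nuclei held 41.0% (C), 64.6% (CC) and 45.8% (CCC) of UMIs in chow. They held 3.16% to 16.0% under HFD, lowest in H and highest in CCH, and 23.2% (HC) and 6.65% (HHC) after WL. In a total like this, fewer adipocyte nuclei and less RNA in each cannot be told apart. Over all nuclei Pck1 was at 217 CPM (C), 266 CPM (CC) and 211 CPM (CCC) in chow. Under HFD it was at 14.3 CPM in H, 22.7 CPM in HH, 103 CPM in CCH and 37.6 CPM in HCH, and after WL at 114 CPM in HC and 41.7 CPM in HHC. Over all barcodes Pck1 was at 251 to 279.7 CPM in chow, 37.3 CPM in H, 47.6 CPM in HH, 229 CPM in CCH and 99.7 CPM in HCH, so that CCH came close to CCC. Within adipocyte-gated nuclei its levels in the 3 states overlapped. Over all nuclei 5 of 8 genes (Gpam, Lpin1, Dgat1, Pnpla3 and Pck1) were lower in every HFD library than in every chow library, against 14.2% of 16913 genes, and 0 were higher, against 17.5%. The same 5 genes were lower in both WL libraries, against 20.1%, and 0 were higher, against 16.3%. Over all barcodes, with no limit on genes, 1 of 8 (Pck1) was lower in every HFD library than in every chow library, against 11.2% of 16989 genes, since CCH lay inside the chow range for Gpam and Lpin1 and above it for Dgat1 and Pnpla3, and 0 were higher, against 11.6%. The same 5 genes were lower in both WL libraries over all barcodes, against 20.6%, and 0 were higher, against 19.2%.

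Adipocyte-gated nuclei carried most UMIs of Pnpla3 in every library, from 61.2% in HHC to 89.2% in HH. For Gpam the share was 83.7% in C but 19.6% in H and 18.6% in HHC, and for Agpat2 it was 19.5% in HCH. Even in H, where 3.16% of UMIs came from adipocyte-gated nuclei, they held 81.5% of Pnpla3 UMIs (95% exact binomial interval 79.5% to 83.3%) and 77.7% of Pck1 UMIs (73.1% to 81.8%).

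**Figure D5:**
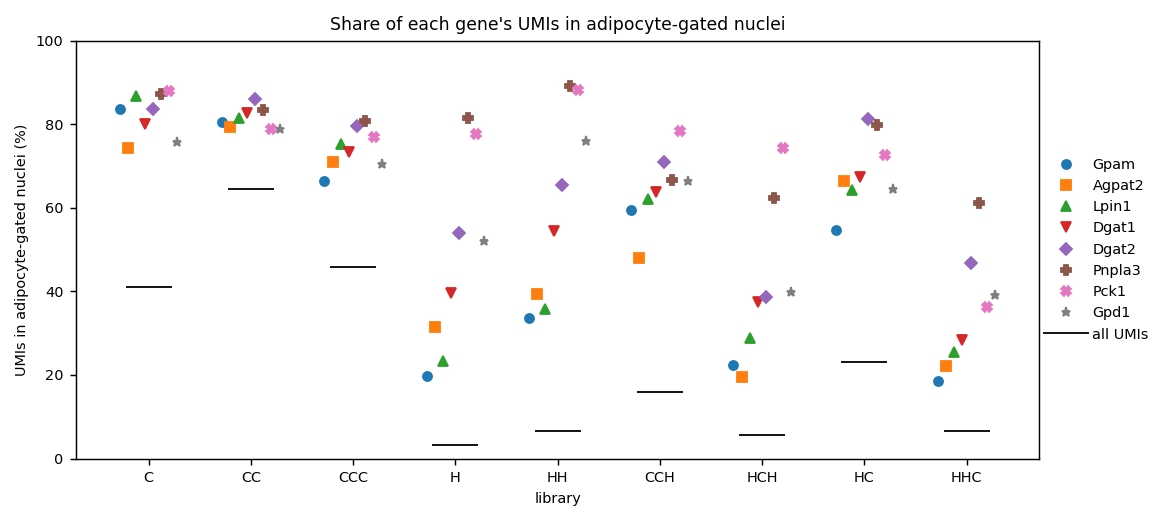
Percent of each gene's UMIs that lay in adipocyte-gated nuclei, by library, with black dashes for the percent of all UMIs in those nuclei. Every gene lies above the dash in every library, with Pnpla3 and Pck1 at 81.5% and 77.7% in H against 3.16% of all UMIs.

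Across the 9 libraries the members did not share a single pattern. Pearson's r of log2(CPM + 1) in adipocyte-gated nuclei was highest for Dgat1 with Pnpla3 (0.89), Agpat2 with Dgat1 (0.87) and Gpam with Lpin1 (0.85), and lowest for Lpin1 with Dgat2 (-0.73). These correlations are descriptions over 9 libraries that fall into 3 diet states and differ in depth. Of 7403 other genes with a mean of at least 20 CPM, those most like Gpam included Fbxo45 and Ube2h (each r = 0.96). For Agpat2 they were Prxl2a, Slc25a10 and Acbd4 (each 0.96), and for Lpin1 Acsl4 (0.98), Rbm34 (0.95) and Fbxo45 (0.94). For Dgat1 they were Tlcd1 (0.98), Dcakd and Timm9 (each 0.97), and for Dgat2 Adamts2, Ehd2 and Anp32a (each 0.95). For Pnpla3 they were Slc36a2 (0.98), Neat1 (0.93) and Echdc1 (0.92), for Pck1 Gm30173 (0.95), Celf2 and Dusp22 (each 0.94), and for Gpd1 AC149090.1 (0.99), Dnm3 and BC005561 (each 0.98).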

How the data were processed

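The deposited matrices hold raw UMI counts per gene and barcode, which the authors made with Cell Ranger 6.1.2 on the 10x mm10 reference with introns included. The study's filters (500 to 3000 genes and at most 40000 UMIs a nucleus; Seurat 4.1.0) were applied here to the deposited counts, mitochondrial genes and Malat1 were left out, and nuclei were classed by 12 marker lists (at least 3 markers, margin 2). No doublet caller was run, and free RNA was not measured as such. The study reports that its own estimate of ambient RNA called for no correction in any mouse sample. Nuclei in which no class led by 2 markers stayed unassigned, but classed nuclei can hold markers of another class (adipocyte-gated nuclei had medians of 2 to 3 progenitor and 1 to 3 macrophage markers). Counts were summed per class and library. State contrasts used edgeR 4.0.16 (TMM, quasi-likelihood test, Benjamini-Hochberg adjustment over all genes), with DESeq2 1.42.0 as an alternative. The edgeR fit was also run on simulated counts with known changes, and the outcome is not given here. Nothing replicates a group, so p-values measure the spread between libraries of a state. Alternatives were other gates, assignment by likelihood with or without free RNA, other filters, a term for the library prefix or for age, subtraction of the level in mesothelial nuclei and leaving out libraries. The members, markers and lists were chosen with earlier results of these data known. The text names the 8 members, the list genes that edgeR called before any alternative (none), those that DESeq2 or an alternative edgeR fit called in adipocyte-gated nuclei, and the 3 genes most like each member, apart from a gene that is not reported here. List genes named without values were chosen for their role. Positions are from GENCODE (GRCm38). R 4.3.3, Python 3.11.15 and SciPy 1.17.1 were used.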

Additional observations from a re-analysis of the deposited data

Results flagged for a closer look

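For 5 genes, the log2 ratios of the WL pairs had opposite signs with both intervals apart from 0, higher in HC than in CC and lower in HHC than in CCC, as for 1.81% of all genes counted in both pairs. Lpin1 was at 0.38 and -0.13, Dgat1 at 0.23 and -0.18, Dgat2 at 0.78 and -0.60, Pnpla3 at 0.68 and -0.16, and Pck1 at 0.14 and -0.64. The difference between the pairs was not tested, since each group is 1 library. The ratios are of CPM without the TMM factors of the edgeR fit, 1.11 for CCC and 1.03 for HHC. These factors would raise the HHC ratios and take the intervals of Lpin1, Dgat1 and Pnpla3 across 0. The share of all genes was not counted with them. With the assignment that models free RNA, Dgat1 and Pck1 turned to -0.11 and -0.13 in HC against CC, so their opposite signs were lost. With the level in mesothelial nuclei subtracted, Dgat1 turned to 0.11 in HHC against CCC, and with the likelihood assignment as well Lpin1 and Pnpla3 turned to 0.05 and 0.02.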

How the results depend on the processing

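The limits are these. Each group is 1 library, so the fits treat libraries of different age and diet length as replicates, and pairs carry counting error only. Few nuclei passed the gate in H and HCH, and CC had the most adipocyte marker RNA in other classes. The causes of the changes below were not tested. Each group has 1 library, so replicate numbers gave no block, and libraries of the same age were matched instead in a fit with age as a term.

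Over the fits by diet state, the numbers of genes called at an adjusted p below 0.05 are given for HFD against chow, WL against chow and WL against HFD. With DESeq2 they were 1727, 209 and 739 in adipocyte-gated, 804, 282 and 699 in progenitor-gated and 1578, 473 and 555 in macrophage-gated nuclei, and the members called for HFD against chow were 2, 3 and 1 in these classes. Without the filter on low counts edgeR called 1452, 153 and 339, then 288, 115 and 253, then 1110, 216 and 266 genes, with 2, 2 and 1 members called for HFD against chow. With H and HH alone as the HFD state it called 2580 genes for HFD against chow and 331 for WL against HFD in adipocyte-gated nuclei, 2338, 273 and 181 genes in progenitor-gated nuclei and 4467, 984 and 1204 in macrophage-gated nuclei. The members called for HFD against chow were then 2, 5 and 5, and for WL against HFD 1 in progenitor-gated and 2 in macrophage-gated nuclei.

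Without the upper gene limit, 2406 genes and 2 members were called for HFD against chow and 3 genes for WL against HFD in adipocyte-gated nuclei, and 1 gene for WL against HFD in progenitor-gated nuclei. The stricter gate called 176 genes for HFD against chow in adipocyte-gated nuclei. The assignment that models free RNA, added after seeing the data, called 202 genes and 1 member in progenitor-gated and 1846 genes and 2 members in macrophage-gated nuclei for HFD against chow. For WL against HFD, where 3 and 8 genes were called in progenitor- and macrophage-gated nuclei, it called 0 and 0, the fit with the library prefix 0 and 0, the likelihood assignment 0 and 1, and the looser gate 0 and 33. Without both CC and CCC, also added after seeing the data, 1 gene was called in adipocyte-gated and 2 in macrophage-gated nuclei for WL against HFD.

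With age as a term, added after seeing the data, H was set beside C, HC beside CC, HHC beside CCC and HCH beside CCH. This left few residual degrees of freedom. HFD against chow then rests on H and C alone, since HH shares its age with no library and HCH and CCH are both HFD libraries. WL against HFD draws on the same pair, so the counts and estimates for these contrasts are uncertain. It called 343 genes for WL against chow in adipocyte-gated nuclei, with 0 members. In progenitor-gated nuclei it called 502, 122 and 0 genes in the order above and 2 members for HFD against chow, and in macrophage-gated nuclei 171, 1 and 0 genes and 1 member for HFD against chow. Estimates turned to -0.70 for Pck1 for HFD against chow, to 0.27 for Lpin1, 0.17 for Dgat1 and 0.41 for Pnpla3 for WL against chow, and to 1.51 for Gpam, -1.27 for Dgat2, 0.33 for Pnpla3 and 0.59 for Pck1 for WL against HFD.

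Single estimates turned direction as follows. For HFD against chow, Pck1 was at -0.0036 with DESeq2, -0.0558 without the filter, -0.0301 with the looser gate, -0.0435 with the likelihood assignment, -0.54 without the upper gene limit, -0.40 with the library prefix, with H and HH alone and without CC and CCC, and -0.18 with the assignment that models free RNA. Dgat2 was at -0.0901 with that assignment, and Pnpla3 at -0.16 with the library prefix and without CC and CCC. With the library prefix, WL against chow gave 0.32 for Lpin1, 0.20 for Dgat1 and 0.55 for Pnpla3, and WL against HFD gave 1.32 for Gpam, -1.39 for Dgat2, 0.71 for Pnpla3 and 0.37 for Pck1. For WL against HFD, Pck1 was at 0.24 and Lpin1 at -0.0028 without the upper gene limit, and Pck1 at 0.0806 with H and HH alone.

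For pairs, Dgat2 in HH against CC was at -0.000886 with the likelihood assignment and -0.13 with the one that models free RNA, which also gave -0.11 for Dgat1 and -0.13 for Pck1 in HC against CC and -0.0668 for Agpat2 in CCH against CC. The likelihood assignment gave -0.0573 for Pck1 in HC against CC. With the level in mesothelial nuclei subtracted, HC against CC gave -0.0628 for Dgat1 and -0.37 for Gpd1, and HHC against CCC gave 0.11 for Dgat1. With the likelihood assignment as well (added after seeing the data), HHC against CCC gave 0.0501 for Lpin1, 0.10 for Dgat1 and 0.0196 for Pnpla3. Subtraction under the main gate gave no value for Gpam in the pairs with CC. In the few mesothelial nuclei of CC, Gpam was not below its level in adipocyte-gated nuclei. Without the upper gene limit, Dgat2 in CCH against CC was at 0.0309.

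The median log2 ratio of the members moved as follows. In H against C it was 0.30 with TMM factors, 0.82 after the mesothelial subtraction and 0.77 with the likelihood assignment as well. In HH against CC it was 0.72 with TMM factors, 0.64 with C as control, 0.33 with the assignment that models free RNA, 0.46 with the likelihood assignment, 0.69 without the upper gene limit and 0.71 with the stricter gate. In HC against CC it was 0.61, 0.12 and 0.22 with TMM factors and these same assignments, and 0.57 after subtraction with the likelihood assignment. In CCH against CC it was 0.21, 0.30 and 0.38 with both assignments and without the upper gene limit, and 0.73 after subtraction with the likelihood assignment.

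Leaving out each library in turn, adipocyte-gated nuclei gave 0 to 2288 genes (most without CCH) and 0 to 2 members for HFD against chow, 0 to 2 genes for WL against chow and 0 to 77 genes for WL against HFD (most without C). Progenitor-gated nuclei gave 0 to 1347 genes and 0 to 5 members, 0 to 130 genes and 0 to 57 genes in the same order. Macrophage-gated nuclei gave 0 to 3948 genes and 0 to 4 members, 0 to 751 genes, and 0 to 805 genes with 0 to 1 members. Estimates for HFD against chow ran from -0.90 to 0.32 for Gpam, -0.65 to 0.12 for Lpin1, -0.15 to 0.63 for Dgat2 and -0.14 to 0.30 for Pck1, and from 0.31 to 1.20 for Pnpla3. For WL against chow they ran from -1.55 to -0.0458 for Gpam, 0.0317 to 1.23 for Dgat2, -0.25 to 0.82 for Agpat2, -0.66 to 0.31 for Lpin1, -0.36 to 0.21 for Dgat1, -0.90 to 0.54 for Pnpla3 and -0.85 to 0.10 for Pck1. For WL against HFD they ran from -1.54 to -0.47 for Agpat2, -1.06 to -0.49 for Dgat1, -1.48 to -0.12 for Pnpla3, -1.06 to 0.12 for Gpam, -0.22 to 0.53 for Lpin1, -0.21 to 0.98 for Dgat2, -0.87 to 0.0773 for Pck1 and -0.45 to 0.25 for Gpd1.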
